A study of Mus musculus with 7 samples.

Results

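The data described here compare mouse uterus taken 24 h after dihydrotestosterone (DHT) with mouse uterus taken 24 h after vehicle. The comparison uses 2 of the 7 arrays of the series, chosen by their titles and source labels. The vehicle array carries a title of time 0, but its animals were also killed 24 h after the injection, so this is the one pair with an equal interval. The DHT group consisted of ovariectomized C57BL/6 females that received 0.1 mg of DHT per mouse under the skin 24 h before death. The vehicle group consisted of ovariectomized C57BL/6 females that received vehicle under the skin 24 h before death. Both groups were aged 10 to 11 weeks per the labels, had been without ovaries for 7 days and so lacked ovarian steroids. Another label has the mice arriving at that age and then resting for 4 weeks. Uteri were pooled before the RNA was labelled, which leaves 1 array of pooled animals a side. The labels name 10 mice without giving the size of a pool. The other 5 arrays of the series, at 1, 3, 6, 12 and 18 h after DHT, serve below only to place the values of the pair. The design text of the series names 0.5 h in place of 18 h, so the 18 h label follows the array title and is in doubt.

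DHT is an androgen that aromatase cannot turn into an estrogen. It acts through the androgen receptor, a nuclear receptor that binds DNA at sites much like those of the glucocorticoid and progesterone receptors. The uterus holds this receptor in its stroma and in the smooth muscle of the myometrium, and androgen given to animals without ovaries is known to enlarge the organ. Contractile muscle protein, fibrillar collagen laid down by stromal cells and cell division are the main components of uterine growth.

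The array is the Affymetrix U74Av2, and the values are MAS5 signals, a measure of a probe set's brightness on a linear scale. Signals under 145.9, here called the floor, were raised to it, and a ratio with one side under the floor is a bound. Probe sets counted as eligible when the higher of both signals reached 291.8. Among 6001 eligible probe sets, 79 were at least 2-fold higher at 24 h of DHT (1.32%) and 83 were at least 2-fold lower (1.38%), or 2.7% apart in all. Taking the brightest probe set of each of 4737 eligible genes gave 59 genes at least 2-fold higher (1.25%) and 52 at least 2-fold lower (1.1%). Over the 6004 genes above the floor on either array the median log2 ratio was 0.01, with 50.7% above 0 and 49.3% below. With 1 array a side no test of any difference is possible, so every value below describes these 2 pools, and whether a difference exceeds the spread between animals was not measured.

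The agreement of probe sets for the same gene gives a measure of probe disagreement within the pair. Probe sets of a gene share the same labelled pools and arrays, so it leaves out spread from labelling and hybridization. For 619 genes with at least 2 eligible probe sets, the log2 ratios of the brightest and the second differed by a median of 0.29, with a 95th percentile of 0.98. Called genes were seldom matched by their second probe set. Of 4 such genes at least 2-fold higher by the brightest, the second was above 0 in 2 and at least 2-fold higher in 1. Of 4 at least 2-fold lower, the second was below 0 in 3 and at least 2-fold lower in 0. Probe sets with a signal between 291.8 and 583.6 were at least 2-fold apart in 4.41% of cases, against 1.52% of those more than 4 times as bright as the limit for eligibility. Both arrays had close 3' to 5' signal ratios for actin, 1.14 at 24 h of DHT and 1.14 in vehicle, and for Gapdh, 0.88 and 0.84 in the same order. Antisense control probe sets of actin and Gapdh were lower on the DHT 24 h array (mean log2 ratio -0.58 over 6), and spiked bacterial controls were higher (0.45 over 9). The part of these shifts in the results below was not tested.

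**Figure D1:**
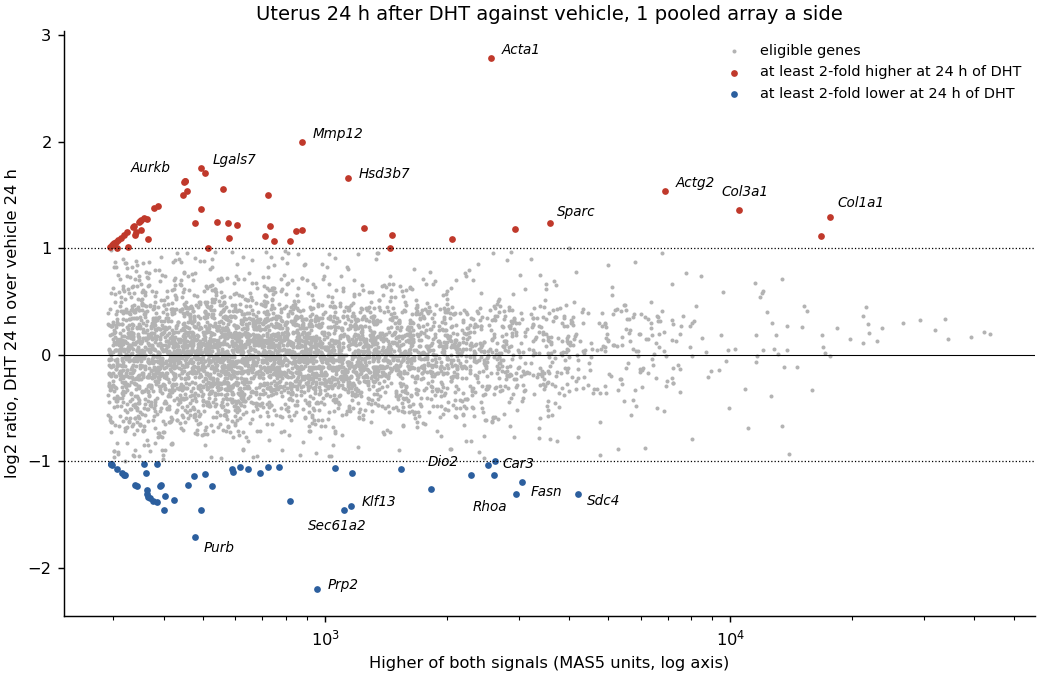
Each point is an eligible gene. The horizontal axis gives the higher of its 2 signals in MAS5 units on a log axis, and the vertical axis the log2 ratio of the DHT 24 h array to the vehicle array. Red points are at least 2-fold higher at 24 h of DHT and blue points at least 2-fold lower. Acta1 stands highest at 2.79, the bright genes Actg2, Col3a1, Col1a1 and Sparc lie to the right above the dotted line, and most called genes lie at the dim end.

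A muscle actin gene held the highest ratio of the comparison. Acta1, the alpha actin of skeletal muscle, had a signal of 2560.0 at 24 h of DHT and 371 in vehicle, a log2 ratio of 2.79. Earlier after DHT it read 359 (1 h), 306 (3 h), 1257 (6 h), 2682 (12 h) and 3060.3 (18 h), so the 24 h value sits with the 12 and 18 h arrays and well apart from 1 h, 3 h and vehicle. Actg2, the gamma actin of visceral smooth muscle, had 6895 at 24 h of DHT and 2371 in vehicle (1.54), and its 24 h value was the highest of the 7 arrays. Its probe set carries a suffix for sequence shared within a gene family, so signal from other actins cannot be told apart there. Actc1, the cardiac actin, read 2595 at 24 h of DHT and 1330 in vehicle (0.96, a probe set of the same kind). Acta2, the vascular and smooth muscle actin, had 13372 at 24 h of DHT and 8150 in vehicle (0.71). Actb, the beta actin of nonmuscle cells, depended on the probe set. Outside the controls it read 2130 and 2581 at 24 h of DHT, against 3732 and 3441 in vehicle (-0.81 and -0.41). Each of these probe sets has a letter suffix, the first one's for sequence shared within a gene family. Earlier signals of the first were 980 (6 h), 993 (12 h), 3226 (18 h). Those of the second were 966 (6 h), 912 (12 h), 2683 (18 h). Both therefore followed the order of the antisense controls described below, and a shared cause was not tested. The far brighter sense-strand control probe sets of beta actin were higher, at 0.47 (3' end), 0.48 (5' end) and 0.47 (middle). At the 3' end they read 39817 at 24 h of DHT and 28673 in vehicle.

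Most genes of smooth muscle contraction were higher alongside the muscle actins. Of 22 genes of the smooth muscle and actin list above the floor, 19 had a log2 ratio above 0 and 3 below, with a median of 0.47 against 0.01 over all genes. Myh11, the smooth muscle myosin heavy chain, had 11500 at 24 h of DHT and 7171 in vehicle (0.68). Calponin (Cnn1), which damps actomyosin, stood at 0.75 and transgelin (Tagln), an actin-binding protein, at 0.58. The lowest member was the laminin-binding integrin Itga7 at -0.61, whose other probe set gave 0.43. All 7 smooth muscle marker genes above the floor were higher at 24 h of DHT, and their summed signal was 49564 at 24 h of DHT and 29716 in vehicle. In pooled whole tissue, a change in the number of cells of a type and a change in RNA per cell cannot be told apart.

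Skeletal muscle itself was barely detected. Of 16 skeletal muscle markers on the array, 8 were under the floor on both arrays and the 8 others had a median log2 ratio of 0.06. Myog, which drives muscle differentiation, stood at 0.77, while the creatine kinase Ckm stood at -0.27, the light chain Mylpf at -0.55 and the fast myosin Myh4 at -0.72. The summed signal of the list, 6835 at 24 h of DHT and 4604 in vehicle, includes Acta1.

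The promoters of 2 muscle actins are shown, Acta1 for its ratio, the highest here, and Actc1 beside it as another muscle actin, under 2-fold. Both windows hold a CArG box, the element bound by serum response factor, which drives muscle actin genes. The windows run from 250 bases before to 50 bases after the RefSeq start on GRCm38.p6, 5' to 3' on the gene's own strand, with the CArG box in capitals. Acta1 lies at chr8:123894726-123895025 on the minus strand and Actc1 at chr2:114052826-114053125 on the minus strand.
Acta1: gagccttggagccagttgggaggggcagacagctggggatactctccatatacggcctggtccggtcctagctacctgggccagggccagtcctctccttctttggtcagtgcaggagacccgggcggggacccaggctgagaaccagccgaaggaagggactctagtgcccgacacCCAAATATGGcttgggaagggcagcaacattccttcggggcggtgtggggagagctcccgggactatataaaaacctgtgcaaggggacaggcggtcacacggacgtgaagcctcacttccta
Actc1: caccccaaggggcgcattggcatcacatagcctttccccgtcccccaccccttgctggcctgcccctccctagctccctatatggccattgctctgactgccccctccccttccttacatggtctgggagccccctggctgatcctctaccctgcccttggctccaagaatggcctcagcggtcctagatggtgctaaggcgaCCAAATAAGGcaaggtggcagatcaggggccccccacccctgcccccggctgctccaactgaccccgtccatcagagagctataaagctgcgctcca
The box starts 73 bases before the start of Acta1 and 47 bases before that of Actc1. Among 18 promoters found for the 22 genes of the list, 5 held a CArG box (27.8%), those of Acta1, Actc1, Myl9, Cnn2 and Vcl, against 1.56% of 4810 promoters of all genes above the floor. A match of letters describes the window and does not show that a factor binds there. RefSeq tables used here hold no entry for Actg2.

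Fibrillar collagen genes were among the brightest called genes. Col3a1, the collagen of distensible tissue, had 10513 at 24 h of DHT and 4089 in vehicle (1.36), and its other probe sets gave 1.24 and 1.54. Col1a1, a chain of type I collagen, had 17650 at 24 h of DHT and 7164 in vehicle (1.30), but its other eligible probe set gave 0.36. The partner chain Col1a2 stood at 0.96 with its brighter probe set and at -0.43 with the other. Sparc, a matricellular protein that binds collagen, had 3579 at 24 h of DHT and 1512 in vehicle (1.24). For Col3a1 and Sparc the 24 h value was above that of every other array, while Col1a1 was slightly brighter at 18 h (18558).

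Of 21 genes for fibrillar collagens and their maturation, 16 were above 0 and 5 below, with a median log2 ratio of 0.44. Of its 20 eligible genes 3 were at least 2-fold higher, against 1.25% of all eligible genes. Col14a1, a collagen that coats fibrils, was lowest at -0.71 and P4hb, a subunit of prolyl hydroxylase, stood at -0.58. Basement membrane genes, 18 of them, had a median of 0.07, led by Col4a5 at 0.92 and Col15a1 at 0.89, with the perlecan gene Hspg2 lowest at -0.47. Proteoglycan and matricellular genes had a median of -0.12, with 8 above 0 and 13 below. Versican (Vcan), a large proteoglycan of loose matrix, had 846 at 24 h of DHT and 380 in vehicle (1.16), and Ccn2, a growth factor of fibrosis, stood at -0.77.

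Among 10 matrix protease and inhibitor genes (median -0.07), 8 were eligible. Of these, 1 was at least 2-fold higher, against 1.25% of all eligible genes, and 1 at least 2-fold lower, against 1.1%. Mmp12, the elastase of macrophages, had 877 at 24 h of DHT and 220 in vehicle, a 3.99-fold ratio, and the 5 other DHT arrays lay between 150.0 and 396. Mmp11, a stromal protease, had 507 at 24 h of DHT and 1059 in vehicle (-1.06). The Mmp12 value comes from a probe set with a suffix for irregular design, and a dimmer one read 245 at 24 h of DHT and 86.3 in vehicle. Macrophage markers showed no shift, with a summed signal of 11053 at 24 h of DHT and 11139 in vehicle, 6 of 12 above 0 and a median of 0.00.

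Mitotic genes formed the list with the highest median, 0.72 over 36 genes, of which 34 were above 0 and 2 below. Of the 36, 6 were under the floor in vehicle and 0 at 24 h of DHT. Those 6, with Aurkb, Kif20a and Ube2c among them, entered only through the 24 h signal and could only lie above 0. Among its 32 eligible genes, 6 were at least 2-fold higher, against 1.25% of all eligible genes, and 0 at least 2-fold lower, against 1.1%. Aurkb, the kinase of the chromosomal passenger complex, had 452 at 24 h of DHT and 93.2 in vehicle, at least 1.63 on the log2 scale since vehicle lay under the floor. Birc5 (survivin), its partner in that complex, had 495 at 24 h of DHT and 192 in vehicle (1.37). Both were brighter still at 18 h, at 681 and 619, and lower at 12 h, at 365 and 426.

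Further members of the division machinery stood above vehicle. The kinesin Kif20a, which acts in cytokinesis, was at least 1.25 higher and Ube2c, the ubiquitin enzyme that works with the anaphase-promoting complex, at least 1.15 higher on the log2 scale. The Ube2c probe set carries a suffix for irregular design and read 134 at 18 h, under the floor. Cks2, a small partner of cyclin-dependent kinases, had 749 at 24 h of DHT and 357 in vehicle (1.07). Cdk1, the kinase that starts mitosis, stood at 0.91 and Cdc20, an activator of the anaphase-promoting complex, at 0.90. Cyclin B2 (Ccnb2) had 2264 at 24 h of DHT and 1298 in vehicle (0.80). The lowest members were Foxm1, a transcription factor of mitotic genes, and Pttg1 (securin), both at -0.04.

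Mki67, the nuclear protein used to mark dividing cells, depended on the probe set. Its brighter probe set read 605 at 24 h of DHT and 259 in vehicle (1.22), while another eligible one read 141 at 24 h of DHT and 295 in vehicle (-1.01). DNA replication and nucleotide synthesis genes lay near vehicle, with a median of 0.18 and 18 of 31 above 0. None of the 21 eligible was at least 2-fold apart, against 1.25% of all eligible genes higher and 1.1% lower. Rrm1, the large subunit of ribonucleotide reductase, was highest at 0.89 and Orc6, of the origin recognition complex, lowest at -0.71. Pcna, the replication clamp, stood at -0.25.

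**Figure D2:**
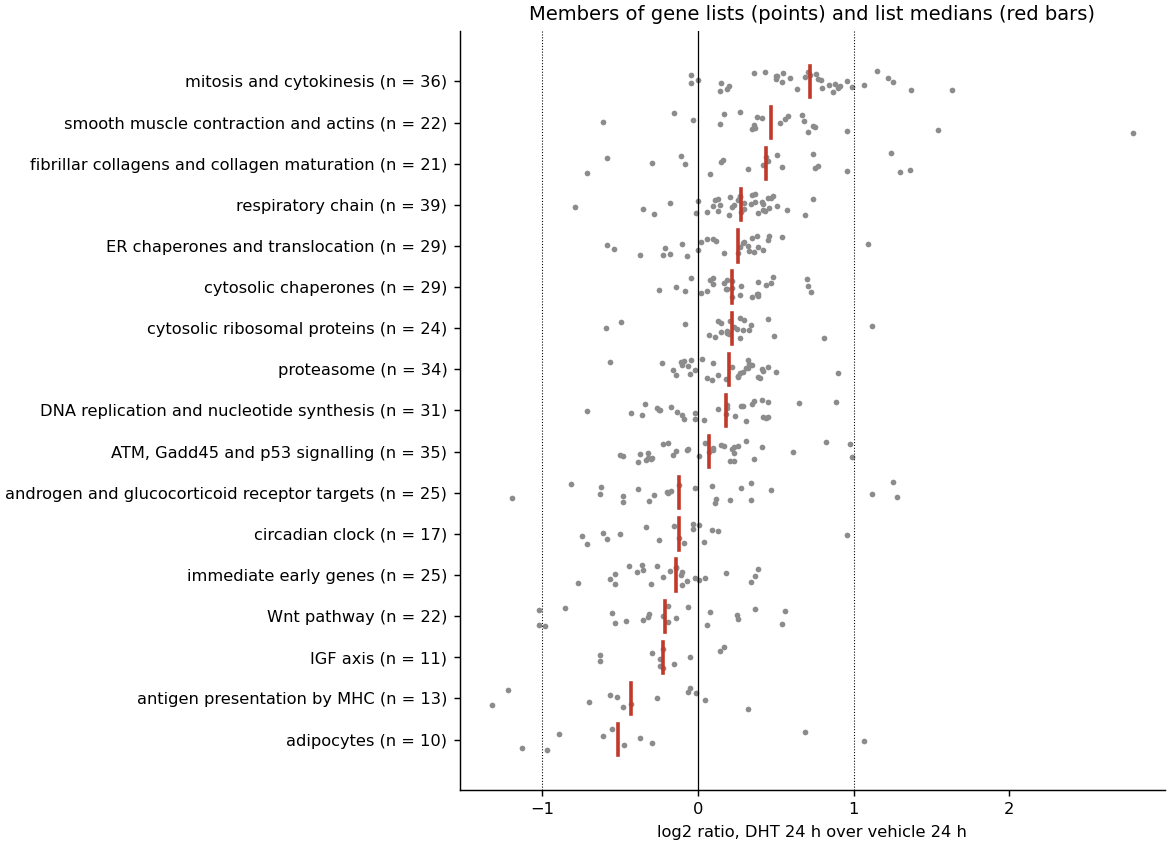
Each grey point is a gene above the floor on either array, and red bars are list medians. The horizontal axis gives the log2 ratio of the DHT 24 h array to the vehicle array, for 17 of the gene lists in order of their median. Mitosis (0.72), smooth muscle (0.47) and fibrillar collagens (0.44) lie furthest right, and antigen presentation (-0.43) and adipocyte markers (-0.51) furthest left.

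Promoters of Ube2c, Mki67 and Cdc20 are shown as examples that hold the same short motifs, as most mitotic promoters found did. Capitals mark TTTGAA, the core of the cell-cycle genes homology region (CHR), and CCAAT, the box bound by NF-Y, on either strand (TTCAAA and ATTGG on the other strand). The windows are defined as for the actins. Ube2c lies at chr2:164769679-164769978 on the plus strand, Mki67 at chr7:135716330-135716629 on the minus strand and Cdc20 at chr4:118437294-118437593 on the minus strand.
Ube2c: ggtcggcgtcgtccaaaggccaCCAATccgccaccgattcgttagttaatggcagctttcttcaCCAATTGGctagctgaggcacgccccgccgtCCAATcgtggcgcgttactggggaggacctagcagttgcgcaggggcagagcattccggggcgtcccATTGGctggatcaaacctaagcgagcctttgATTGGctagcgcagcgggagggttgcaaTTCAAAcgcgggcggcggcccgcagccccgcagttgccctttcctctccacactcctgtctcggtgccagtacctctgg
Mki67: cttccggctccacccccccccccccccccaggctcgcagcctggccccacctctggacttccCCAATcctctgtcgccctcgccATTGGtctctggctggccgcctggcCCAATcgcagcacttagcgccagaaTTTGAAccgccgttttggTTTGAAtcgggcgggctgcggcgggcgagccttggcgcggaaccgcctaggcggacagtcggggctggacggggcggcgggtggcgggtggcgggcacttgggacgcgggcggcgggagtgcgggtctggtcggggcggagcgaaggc
Cdc20: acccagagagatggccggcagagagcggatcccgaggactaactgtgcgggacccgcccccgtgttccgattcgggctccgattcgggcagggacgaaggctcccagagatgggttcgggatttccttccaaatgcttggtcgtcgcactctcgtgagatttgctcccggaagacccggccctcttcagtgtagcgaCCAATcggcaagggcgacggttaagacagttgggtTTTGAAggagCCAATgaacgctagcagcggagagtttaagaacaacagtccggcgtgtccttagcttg
Ube2c held 1 TTTGAA and 6 CCAAT, of which neighbouring matches on opposite strands share letters, Mki67 held 2 and 3, and Cdc20 held 1 and 2. Of 28 promoters found for the 36 genes, 22 held TTTGAA (78.6%), against 12.2% of 4810 promoters of all genes above the floor. CCAAT was in 22 (78.6%) against 38.2%, and both were in 20 (71.4%) against 5.32%. In promoters of the replication list, 29 in all, TTTGAA was in 13.8% and CCAAT in 62.1%. The smooth muscle list held TTTGAA in 5.56% and the fibrillar collagen list in 7.14%. No entry was found for Aurkb.

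**Figure D3:**
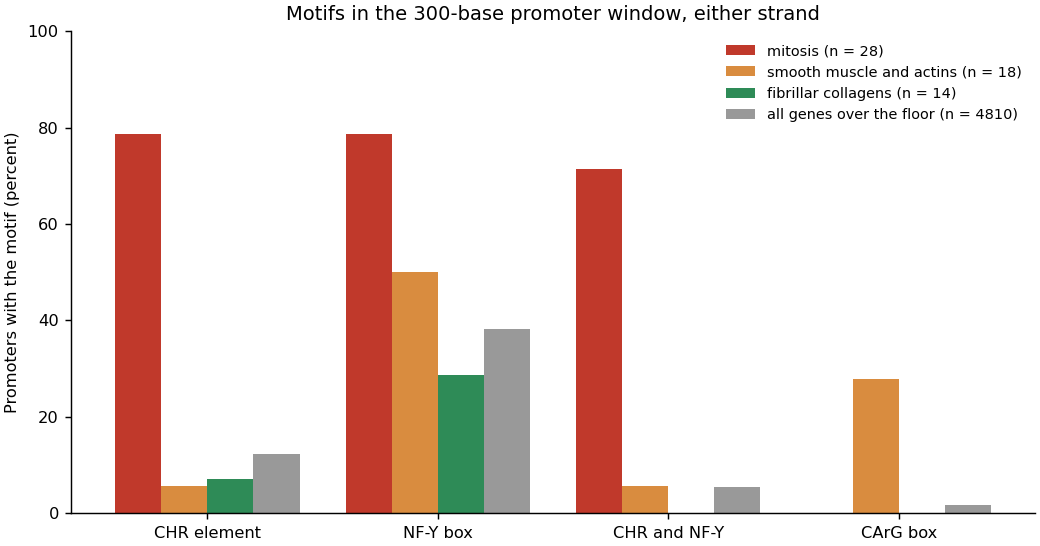
Bars give the percent of promoters (vertical axis) that hold the CHR element, the NF-Y box, both, or a CArG box on either strand. Colours stand for the mitosis, smooth muscle and fibrillar collagen lists and for all genes above the floor. Mitosis promoters reach 78.6% for each of the first 2 motifs and 71.4% for both, and the CArG box reaches 27.8% in the smooth muscle list.

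Known targets of the androgen and glucocorticoid receptors did not share a direction at 24 h. Of 25 such genes above the floor, 11 were above 0 and 14 below, with a median of -0.12. Fkbp5, a chaperone partner that steroid receptors induce, had 364 at 24 h of DHT and 151 in vehicle (1.28). Zbtb16, a transcription factor induced by glucocorticoid and androgen, had 541 at 24 h of DHT and 227 in vehicle (1.25). Both had been brighter earlier, Fkbp5 at 1037 on the 12 h array and Zbtb16 at 1146 on the 6 h array, so their 24 h values are the low end of the range from 6 h on. Hsd11b2, which inactivates corticosterone, had 709 at 24 h of DHT and 326 in vehicle (1.12).

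Other genes of this kind were lower. Fasn, the fatty acid synthase, had 1343 at 24 h of DHT and 3058 in vehicle (-1.19), and vehicle was the brightest and 24 h the dimmest of the 7 arrays. Sat1, which breaks down polyamines, stood at -0.81. Igfbp3, a carrier of IGF, had 3067 at 24 h of DHT and 4755 in vehicle (-0.63), above the 1292 of the 18 h array.

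Enzymes of local hormone supply stood on both sides. Aldh1a2, which makes retinoic acid, had 357 at 24 h of DHT and 116 in vehicle, at least 1.29 on the log2 scale. Hsd3b7, a bile acid and oxysterol enzyme, had 1140.4 at 24 h of DHT and 361 in vehicle (1.66), while the other DHT arrays lay between 787 and 1098. For Hsd3b7 the vehicle array therefore stands apart from all 6 DHT arrays. Dio2, which activates thyroid hormone, had 1048 at 24 h of DHT and 2290 in vehicle (-1.13).

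**Figure D4:**
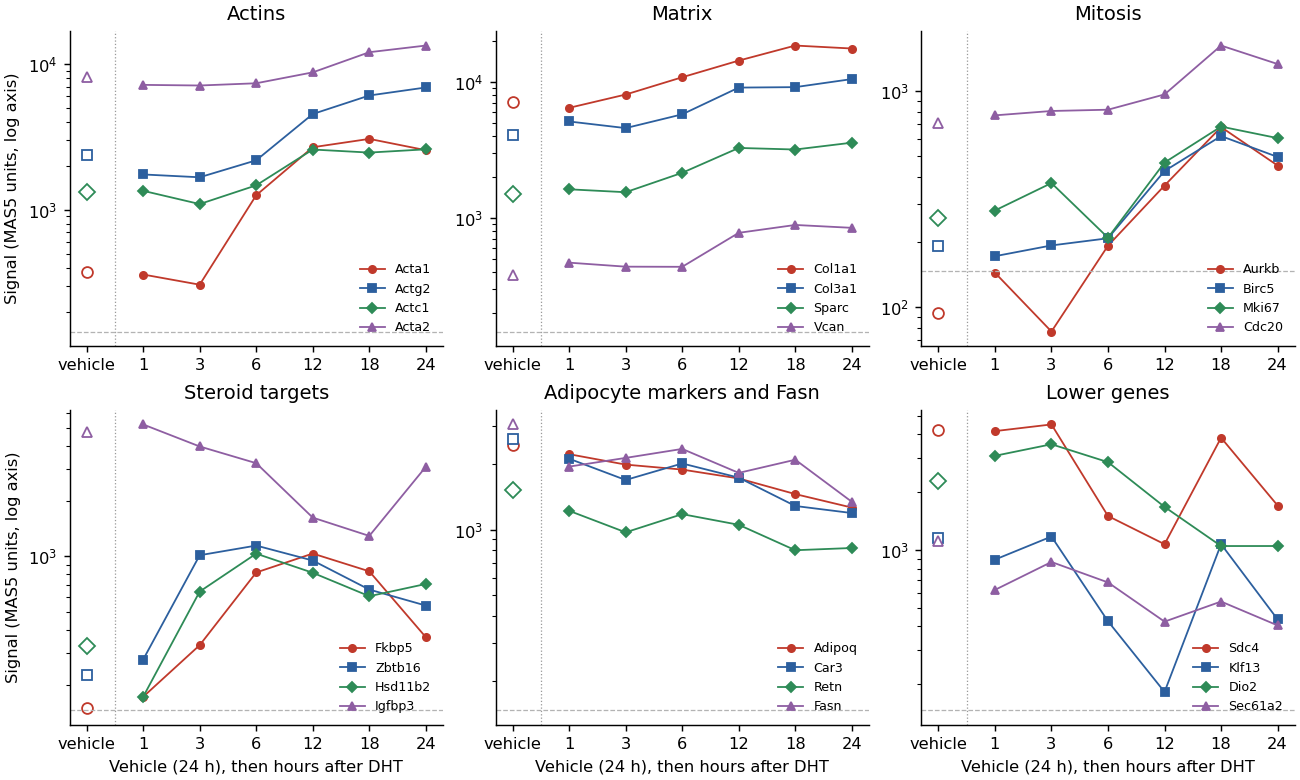
Signals of 24 genes in MAS5 units on log axes, in panels by role. Each panel gives the vehicle array as open symbols at the left and the DHT arrays at 1 to 24 h as joined filled symbols, and the dashed line is the floor of 145.9. Actins, matrix and mitosis panels show the 24 h values with those of 12 and 18 h and above vehicle. The last panel shows Sdc4 and Klf13 low at 6, 12 and 24 h but near vehicle at 18 h.

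Genes of protein and energy production showed small ratios with one prevailing direction. Of 39 respiratory chain genes, 34 were above 0 and 5 below, with a median of 0.28. None of the 35 eligible was at least 2-fold apart, against 1.25% of all eligible genes higher and 1.1% lower. They ran from Cyc1 (cytochrome c1) at -0.79 to Ndufv2 (a complex I subunit) at 0.74. The other probe set of Cyc1 gave 0.28. Cytosolic chaperones had 25 of 29 above 0 (median 0.22, highest Cct8 at 0.73, lowest Dnaja1 at -0.25), and genes for the endoplasmic reticulum had 21 of 29 (median 0.26). In that list the disulfide isomerase Pdia3 had 2058 at 24 h of DHT and 965 in vehicle (1.09).

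Cytosolic ribosomal protein genes had 21 of 24 above 0, with a median of 0.22, which was 0.02 after quantile normalization. Rps19, of the small subunit, had 16747 at 24 h of DHT and 7727 in vehicle (1.12), and vehicle was the dimmest of the 7 arrays for it. Proteasome genes had a median of 0.20 (23 of 34 above 0) and ribosome biogenesis genes 0.13 (21 of 32). The list of ATM, Gadd45 and p53 signalling had a median of 0.07, with 20 above 0 and 15 below. There Cdc25c, which activates Cdk1, stood at 0.99, just short of 2-fold, Atm at 0.21, Gadd45a at -0.37 and Gadd45g at -0.32.

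Genes of antigen presentation were mostly lower, 11 of 13 with a median of -0.43. Ciita, the master regulator of class II genes, had 161 at 24 h of DHT and 402 in vehicle (-1.32). Tap2, the peptide transporter, had 197 at 24 h of DHT and 458 in vehicle (-1.22). It read 308 at 6 h, 281 at 12 h and 349 at 18 h, and it followed the order of the antisense controls described below. The class II genes H2-Ab1, H2-Eb1 and H2-Aa and the invariant chain Cd74 stood at -0.70, -0.56, -0.43 and -0.48. Class I genes were close to vehicle, with H2-K1 at -0.01 and H2-D1 at 0.05, and B2m at 0.32. Interferon-induced genes had 21 of 28 below 0, with a median of -0.08.

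The Wnt list had 15 of 22 genes below 0 and a median of -0.21. Wnt4, a ligand of uterine stroma and epithelium, had 60.4 at 24 h of DHT and 296 in vehicle, at least 1.02 lower on the log2 scale, and had stood at 1089 on the 3 h array. Axin2, a target and inhibitor of the pathway, had 190 at 24 h of DHT and 385 in vehicle (-1.02). Axin2 was dimmer at 24 h than on every other array. Wnt4 was under the floor at 24 h and also at 18 h (134.7), so those arrays cannot be ranked for it. IGF genes had 9 of 11 below 0 (median -0.22), with Igf2 at -0.63. Igf1, the growth factor itself, depended on the probe set, since the brighter one had 1554 at 24 h of DHT and 1832 in vehicle (-0.24). The other, whose suffix marks probes in common with the first, had 741 at 24 h of DHT and 209.5 in vehicle (1.82).

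Immediate early genes, which answer stimuli within the first hour, had 19 of 25 below 0 and a median of -0.14, from Ccn2 at -0.77 to Myc at 0.39. Clock genes had 12 of 17 below 0 (median -0.12). Dbp, an output gene of the clock, had 430.5 at 24 h of DHT and 222 in vehicle (0.96). The activator Arntl had 373 at 24 h of DHT and 610.4 in vehicle (-0.71), and the repressor Nr1d1 stood at -0.61. The hour of death is not given in the labels, so any difference in it between the pools cannot be told apart from the treatment.

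Adipocyte markers had the lowest median of the lists with at least 10 genes, -0.51, with 8 of 10 below 0. Their summed signal was 5671 at 24 h of DHT and 9301 in vehicle. Car3, a carbonic anhydrase abundant in fat, had 1191 at 24 h of DHT and 2608 in vehicle (-1.13), and adiponectin (Adipoq) had 1263 at 24 h of DHT and 2468 in vehicle (-0.97). Resistin (Retn) stood at -0.89 and lipoprotein lipase (Lpl) at -0.61. Leptin (Lep) lay on the other side, with 819 at 24 h of DHT and 391 in vehicle (1.07), although its other probe set lay at the floor. The amount of fat left on the uteri was not recorded in the labels, and its part in these values, and in the lower Fasn, was not tested.

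Genes that estrogen controls in uterine epithelium and stroma showed no common direction, with 16 of 30 above 0 and a median of 0.10. Ckb, a creatine kinase long used as an estrogen marker in rodent uterus, had 5814 at 24 h of DHT and 3175 in vehicle (0.87). The homeobox gene Hoxa11, which patterns the uterus, had 3721 at 24 h of DHT and 2355 in vehicle (0.66). The progesterone receptor gene Pgr had 225 at 24 h of DHT and 357 in vehicle (-0.67), and cyclin D1 (Ccnd1) stood at -0.57. Steroid receptor and coregulator genes had a median of 0.12 over 18 genes. Of the 14 eligible, 1 (Fkbp5) was at least 2-fold higher, against 1.25% of all eligible genes, and 0 at least 2-fold lower, against 1.1%.

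Markers of the uterine epithelium lay close to vehicle, with 8 of 14 above 0, a median of 0.05 and a summed signal of 19742 at 24 h of DHT and 19122 in vehicle. The keratin Krt19 stood at 0.44 and the cadherin Cdh1 at -0.38. Genes of stratified epithelium split evenly, 7 above 0 and 7 below, from the keratin Krt17 at -0.57 to the envelope protein Sprr1a, with 1208 at 24 h of DHT and 623 in vehicle (0.95). Aquaporin and fluid transport genes had a median of 0.06, with the water channel Aqp1 lowest at -0.54. Of the 10 eligible genes in that list, 1 was at least 2-fold higher, against 1.25% of all eligible genes. That gene was Clca1, a secreted regulator of chloride channels, with 2944 at 24 h of DHT and 1300 in vehicle (1.18). Its probe set carries a suffix for irregular design.

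Stromal markers had 7 of 10 above 0 and a median of 0.24, with a summed signal of 55364 at 24 h of DHT and 40743 in vehicle that includes Col1a1. The surface protein Thy1 was lowest there, with 1632 at 24 h of DHT and 2491 in vehicle (-0.61), and the growth factor receptor Pdgfrb stood at -0.48. Endothelial markers had a median of 0.07, with Cd34 at 0.59 and the receptor Tie1 at -0.28. Genes of vascular growth and tone were even, 9 above 0 and 9 below.

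Blood and immune cell markers were few above the floor. Of 13 T and NK cell markers on the array, 4 were above it, with a summed signal of 2535 at 24 h of DHT and 3585 in vehicle. Most of that sum is Thy1, which stroma also expresses, and Cd4 stood at -0.91. B and plasma cell markers had 4 of 5 below 0 (median -0.14). Erythroid markers summed to 3135 at 24 h of DHT and 3007 in vehicle, while Klf1, an erythroid transcription factor, was at least 1.13 lower on the log2 scale with 112 at 24 h of DHT and 320.4 in vehicle. Markers of ovary and oviduct summed to 1547 at 24 h of DHT and 1721 in vehicle.

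Cholesterol synthesis genes had 8 of 10 above 0 (median 0.15), led by the farnesyl diphosphate synthase Fdps, with 811 at 24 h of DHT and 418 in vehicle (0.96). Glycolysis genes had 13 of 19 above 0 (median 0.15), with the regulator Pfkfb3 lowest at -0.89. Lysosomal cathepsin genes had 13 of 16 above 0 (median 0.19), and Ctse, an aspartic protease, had 12001 at 24 h of DHT and 7936 in vehicle (0.60). Spermidine synthase (Srm) had 524 at 24 h of DHT and 281 in vehicle (0.90). Genes of TGF-beta, activin and BMP signalling had a median of 0.00, with Ltbp3, which anchors latent TGF-beta, lowest among eligible members at -0.80.

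Other genes among the 15 with the highest ratios were mostly dim. Lgals7, an epithelial galectin, was at least 1.76 higher on the log2 scale, with 495 at 24 h of DHT and 120.1 in vehicle. Gfpt2, of hexosamine synthesis, had 506 at 24 h of DHT and 155 in vehicle (1.71). Rab20, a small GTPase, had 449 at 24 h of DHT and 81.2 in vehicle (at least 1.62), and the other DHT arrays reached at most 145. Nup107, a nuclear pore protein, had 721 at 24 h of DHT and 254 in vehicle, a 2.84-fold ratio, and the other DHT arrays lay between 571 and 803.

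For Afg3l1 (1.56), Nup107, Hsd3b7, Lgals7, Larp7 and Srpx the vehicle array was dimmer than all 6 DHT arrays. The same held for 50.6% of the 79 higher probe sets, a share that the choice by ratio to vehicle raises. Ratios of the 15 not given above, on the log2 scale unless a fold is named, were those of Srpx (1.54), Fam220a (2.82-fold) and Larp7 (at least 1.40). The other probe sets of Larp7 were near 0. The digestive proteases Prss2 and Cela2a, also among the 15, were at least 1.63 and at least 1.38 higher. Of the 15 ratios, 6 are bounds.

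The 15 genes with the lowest ratios again included 6 bounds. Prp2, Gapdhs, Kcnj9, Eef1b2, Ppfibp2 and Aak1 were read by probe sets with a suffix for irregular design. A letter suffix of any kind was on 39.8% of the 83 lower and 29.1% of the 79 higher probe sets, against 18.3% of eligible ones. Prp2 had 207 at 24 h of DHT and 952 in vehicle (-2.20), with another probe set at the floor. Purb, which binds single-stranded purine-rich DNA and represses smooth muscle actin, had 135 at 24 h of DHT and 477 in vehicle, at least 1.71 lower. Sec61a2, of the translocation channel, had 404 at 24 h of DHT and 1114 in vehicle (-1.46), and the glycolytic Gapdhs stood at -1.46. Klf13, a transcription factor, had 435 at 24 h of DHT and 1160.0 in vehicle (-1.42), but its other probe set gave -0.10.

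Among the same 15, the potassium channel Kcnj9 stood at -1.37 and Kcnd3 at least 1.34 lower, Chrna7, a nicotinic receptor subunit, at least 1.37 lower and Sdf2 at least 1.46 lower. The elongation factor Eef1b2 stood at -1.36, Ppfibp2 at -1.38, Ciita at -1.32, Aak1 at least 1.33 lower and Sypl2 at least 1.31 lower. As a mean over its probe sets, Aak1 stood at -0.50. Rhoa, the GTPase that drives smooth muscle contraction, had 1196 at 24 h of DHT and 2965 in vehicle (-1.31), while its other probe sets gave 0.57 and -0.68.

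Some lower genes followed the order of the antisense controls, an order that was looked for after those controls were seen. Relative to vehicle, the log2 means of the controls were low 6, 12 and 24 h after DHT (-0.81, -0.98 and -0.58) and not low after 1, 3 and 18 h (0.02, 0.31 and 0.41). Of the 83 lower probe sets, 23 were below the 1, 3 and 18 h and vehicle arrays on all 3 of the arrays at 6, 12 and 24 h (27.7%, against 7.7% of all eligible probe sets). They include Rhoa, Klf13, Tap2, Gnb1 (a G protein subunit), Foxo3 (a forkhead factor) and Sdc4. Sdc4, a cell surface proteoglycan, had 1703 at 24 h of DHT and 4210 in vehicle (-1.31), but 3840 at 18 h. Of the 79 higher probe sets, 11 ran in the opposite order (13.9%, against 6.68%). Choosing probe sets by their ratio to vehicle raises both shares by construction, so nothing is read from their excess. Whether the controls and these genes share a cause was not tested.

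The DHT 24 h array was closer to the late DHT arrays than to vehicle by the same count. It had 90 probe sets at least 2-fold apart from 12 h (1.52%) and 107 from 18 h (1.82%), against 162 from vehicle (2.7%), with 129 from 6 h (2.19%), 215 from 3 h (3.61%) and 149 from 1 h (2.51%). Of the 79 higher probe sets, 14 were also at least 2-fold above 18 h, and of the 83 lower ones 23 were at least 2-fold below 18 h. Over all 6001 eligible probe sets, 47 were at least 2-fold above 18 h and 48 at least 2-fold below it. Vehicle was the lowest of all 7 arrays for 40 of the 79 (50.6%, against 14.6% of eligible probe sets) and the highest for 49 of the 83 (59%, against 17.2%). Choosing probe sets by their ratio of 24 h to vehicle raises these shares and the counts against 18 h by construction.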

How the data were processed

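The deposited values are intensity signals on a linear scale from 7 Affymetrix U74Av2 arrays, and the submitters' processing notes name MAS5 without a version. Tested on the values, all arrays had been scaled to a common trimmed mean, and this was kept. Of 12422 probe sets other than controls, 10833 named 1 gene, with symbols updated through Entrez IDs to RefSeq GRCm38.p6. A floor was set at the 40th percentile over the whole table, lower signals were set to it, log2 was taken, and a probe set was eligible when the higher of both signals was at least 2 times that floor. A gene took its brightest probe set by mean log2 over all 7 arrays. Python 3.11.15, numpy 2.4.6 and pandas 2.3.3 were used. The counting code was checked on simulated data, vehicle signals with planted 3-fold changes and no added noise. That check does not measure false calls between real arrays. Named genes are the 15 highest and 15 lowest, list members at least 2-fold apart, and list extremes; further list members are named as examples. The members, lists and rule were chosen with earlier results of these data known. The number of arrays limits the precision. Alternatives changed the floor, the scaling, the pseudocount, the fold, the filter and the probe set of a gene.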

Additional observations from a re-analysis of the deposited data

How the results depend on the processing

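The counts of higher and lower probe sets, 79 and 83, depended on the floor and the fold. They were 363 and 407 with a floor at the 20th percentile, 29 and 24 with one at the 60th, 35 and 29 with the floor added as a pseudocount, 346 and 372 at 1.5-fold and 14 and 4 at 3-fold. Quantile normalization gave 79 and 79 and median scaling 81 and 77. The mitosis median moved to 0.37 with the floor at the 60th percentile, and quantile normalization took the ribosomal protein median to 0.02. Of 42 list medians, 7 changed sign under some alternative, all 0.12 or less from 0: matrix proteases to 0.02 and erythroid markers to 0.02 (20th percentile), ATM and p53 signalling to -0.08 (60th), steroid targets to 0.07 and steroid receptors to -0.03 (dimmest probe set), vascular genes to -0.06 (pseudocount) and skeletal muscle to -0.03 (mean over probe sets). Of 121 named genes, 48 moved with that floor, 32 with the pseudocount, 14 with the mean over a gene's probe sets and none under either scaling. Mki67 reversed to -1.01 with its dimmest eligible probe set. No paired analysis was possible because each group has 1 array, and for the same reason no replicate could be left out. Dim signal leaves bounds: 32 of 79 higher probe sets were under the floor in vehicle, and 32 of 83 lower ones were under it at 24 h of DHT.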

Other observations

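Genes for digestive enzymes, which are known from the pancreas, were looked at after Prss2 and Cela2a appeared among the highest ratios. Prss2, a trypsinogen, had 451 at 24 h of DHT and 17.1 in vehicle, and at most 91.6 on the other DHT arrays. Cela2a, an elastase, had 379 at 24 h of DHT and 133 in vehicle, and Cela1 had 855 at 24 h of DHT and 443 in vehicle (log2 ratio 0.95). The lipase Cel stood at 0.46 and the chymotrypsinogen Ctrb1 at 0.18. Ctrl, a chymotrypsin-like protease, had 307 at 24 h of DHT and 644 in vehicle (-1.07), and colipase (Clps) stood at -0.67. Amy1, Pnliprp1 and Pnliprp2 were under the floor on both arrays. Of the 7 enzymes above the floor on either array, the DHT 24 h array exceeded vehicle for 5 and exceeded the highest of the other DHT arrays for 6, all but Ctrl. Both counts include Prss2 and Cela2a, which prompted the look and were under the floor in vehicle, so nothing is read from them. Over all genes above the floor, 50.7% exceeded vehicle. Over all eligible probe sets, 24 h was the highest of the 6 DHT arrays for 16.2%.

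Among other bright genes, chosen after their values were seen, Bzw2 had 1247 at 24 h of DHT and 547 in vehicle (1.19), and adenosine kinase (Adk) 1460 and 667 in the same order (1.13). The chemokine Cxcl14 had 737 at 24 h of DHT and 1543 in vehicle (-1.07).

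Genes just inside the 2-fold limit were Scp2, with 1447 at 24 h of DHT and 723 in vehicle, and Gnb1, with 1312 at 24 h of DHT and 2629 in vehicle. Just outside it were Cdc25c, with 296 at 24 h of DHT and 149 in vehicle, and Apc, with 202 at 24 h of DHT and 399 in vehicle.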
